A study of Mus musculus with 27 samples.

Results

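The probes of 9 mouse genes that mark mitochondria for removal by autophagy were followed across 27 single muscle fibers. The genes were *Bnip3*, *Bnip3l*, *Fundc1*, *Fkbp8*, *Bcl2l13*, *Phb2*, *Pink1*, *Park2* and *Optn*. Members were chosen by gene symbol, and all probes of the array that carried 1 of the 9 symbols were taken, which gave 16 of 55681 probes once control spots were set aside. Each array was hybridized in 1 colour with amplified RNA of 1 myofiber of the tibialis anterior, a fast muscle of the lower leg. By the labels the 8 WT myofibers came from 2 mice, the 12 Smn1deltaSKM myofibers from 3 mice and the 7 Smn1deltaSKM+AFS myofibers from 2 mice. For the Smn1deltaSKM+AFS group the study's own results describe fewer myofibers, taken from 3 mice, and the labels were followed here. All mice were male and the labels give an age of 3 months. Smn1deltaSKM mice lack *Smn1*, the gene lost in spinal muscular atrophy, in skeletal muscle, through Cre under the skeletal actin promoter acting on a floxed *Smn1* allele, and the study calls the control mice littermates, while its methods also name C57BL/6 GFP+ mice as a source of myofibers. Smn1deltaSKM+AFS mice have the same genotype and received amniotic fluid stem (AFS) cells, selected for c-kit and labelled with GFP, through the tail vein. By the methods these mice were killed 1 month after the transfer, while the labels give all groups the same age. Myofibers of 1 mouse are not independent, so groups were compared over the 7 mice, each the mean of its 3 or 4 myofibers.

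In mitophagy, a receptor or adaptor ties a mitochondrion to the growing autophagosome by binding an Atg8 protein of the LC3 or GABARAP family. BNIP3, NIX (the product of *Bnip3l*), FUNDC1, FKBP8 and BCL2L13 sit in the outer membrane and bind Atg8 proteins directly, and prohibitin 2 (*Phb2*) does so from the inner membrane. In the other route the kinase PINK1 gathers on mitochondria that have lost membrane potential and phosphorylates ubiquitin and Parkin. Parkin, the product of *Park2*, is a ubiquitin ligase that coats outer membrane proteins, and optineurin (*Optn*) carries the ubiquitin-marked organelle to the Atg8 proteins. Skeletal muscle is rich in mitochondria, and *Bnip3* and *Bnip3l* are known there as genes that FoxO factors and low oxygen switch on.

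The results turn on 7 of the 16 probes, each 60 bases long and named here by the position on the transcript that the array annotation gives. The 30 bases printed for each are the middle of the probe or the stretch around a polyadenylation hexamer, AATAAA or ATTAAA, which stands in capitals. They show that probes of 1 gene read different stretches of its transcript, some of them next to such a hexamer.
Bnip3 at 1455: caaagctgcttaaatcgggcgtcctcccag
Bnip3l at 1044: ttagtaccaccagtcacctgcatcattcat
Bnip3l at 1167: tgttttgttttccaggacaaaaacaagctt
Fundc1 at 1720: tattgcagctattcagactatcttcctgtg
Park2 at 444: gtcattctggacacagacagtaagagggat
Park2 at 3142: agactgtcaatcAATAAAgacccagactgt
Phb2 at 918: aacgatcgccacatcacagaaccgaatcta
On the mm9 build used by the array, the *Bnip3* probe lies at chr7:146082760-146082819 on the minus strand and the *Bnip3l* probes at chr14:67606210-67606269 and chr14:67606087-67606146 on the minus strand. The *Fundc1* probe lies at chrX:17133867-17133926 on the minus strand. The *Park2* probes lie on the plus strand at chr17:11430502-11430561 and chr17:12256168-12256227, near opposite ends of the transcript. The *Phb2* probe at 918 maps to chr6:124665659-124666012, a span of 354 bases, longer than the probe itself. A hexamer was present in 5 of the 16 probes, those of *Bnip3* at 1575, *Bnip3l* at 3177, *Park2* at 3142, *Pink1* and *Bcl2l13*, and in 13.7% of all probes on the array. The *Park2* probe at 3142 also holds a direct repeat of 15 bases, starting at bases 19 and 42 of the probe, and 0.44% of the array's probes hold a repeat of that length or longer.

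All values are log2 signals over the 75th percentile of the array, left out where a spot was not well above background or was flagged as uneven or outlying. An array gave a value for 23170 to 37580 probes, and precision is limited by the 2 or 3 mice in each group. WT was hybridized on a single slide, with no other group scanned that day, so batch and genotype cannot be told apart in either comparison with WT. Of the Smn1deltaSKM arrays 3 were scanned on day 1 and 9 on day 2, and of the Smn1deltaSKM+AFS arrays 2 and 5. The day 1 arrays all came from mouse 1 of their group. The targeted gene has a pair of probes, of which 1 was lower in Smn1deltaSKM than in WT by -1.68 (SE 0.369, limma, adjusted p = 0.0205) and the other differed by 0.19 (adjusted p = 0.717), and which of them reads the deleted part was not determined here. Of 10 myofiber markers, 6 had a value on every array. The log2 of the summed signal of all 10 ran from 10.83 to 11.46 in WT, 10.19 to 10.93 in Smn1deltaSKM and 10.73 to 11.39 in Smn1deltaSKM+AFS. That sum hides markers that moved with the groups, since the median signal of *Mb*, the myoglobin gene, was 3.91, 4.73 and 7.46 and that of *Myh1*, a fast myosin, 1.61, 3.47 and 6.83 in the same order. Other markers had their lowest median in Smn1deltaSKM, with *Ckm* at 8.318, 6.727 and 7.167 and *Actn3* at 8.034, 6.605 and 7.085. The same held, by less, for *Acta1*, *Atp2a1*, *Tnnt3*, *Tnnc2* and *Myh4*. Summed signals of 5 macrophage or leukocyte markers spanned 4.48 to 5.16, 4.35 to 5.1 and 4.34 to 5.28 in the same order, a sum carried by *Csf1r* (medians 4.68, 4.22 and 4.33). The other members had higher medians in Smn1deltaSKM than in WT, with *Cd68* at -1.38, 1.74 and 2.40, *Ptprc* at -1.51, 0.02 and -0.23, *Cd14* at -0.85, 0.33 and 0.45, and *Emr1* measured on 2 of 8, 8 of 12 and 3 of 7 arrays. Among 4 fibroblast markers *Pdgfra* had no value on any array, while *Dcn* had one on 1 of 8 WT, 12 of 12 Smn1deltaSKM and 5 of 7 Smn1deltaSKM+AFS arrays, and the part of fiber type or of other cells in the results was not tested.

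Of the 15 member probes that could be tested, limma called 4 lower and 2 higher in Smn1deltaSKM than in WT at an adjusted p under 0.05. The lower probes were 1 of *Bnip3*, 2 of *Bnip3l* and that of *Fundc1*, and the higher probes were both of *Park2*. Over the 22870 probes tested 14.3% were called lower and 7.04% higher. The median difference was -0.78 over the member probes and -0.16 over all probes. Every Smn1deltaSKM mouse lay below both WT mice for 10 of the 15 member probes and above them for 2, a placing found for 34.2% and 20.8% of all probes. Counts of single myofibers outside the range of another group, given below, were not made over all probes. They describe the spread only, since myofibers of a mouse are not independent. The share of all calls that were lower was 67.0% on this scale, 46.6% with arrays centred on the median of probes measured everywhere and 11.8% with no scaling, which moved the median over all probes from -0.16 to 0.05 and 0.45.

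**Figure D1:**
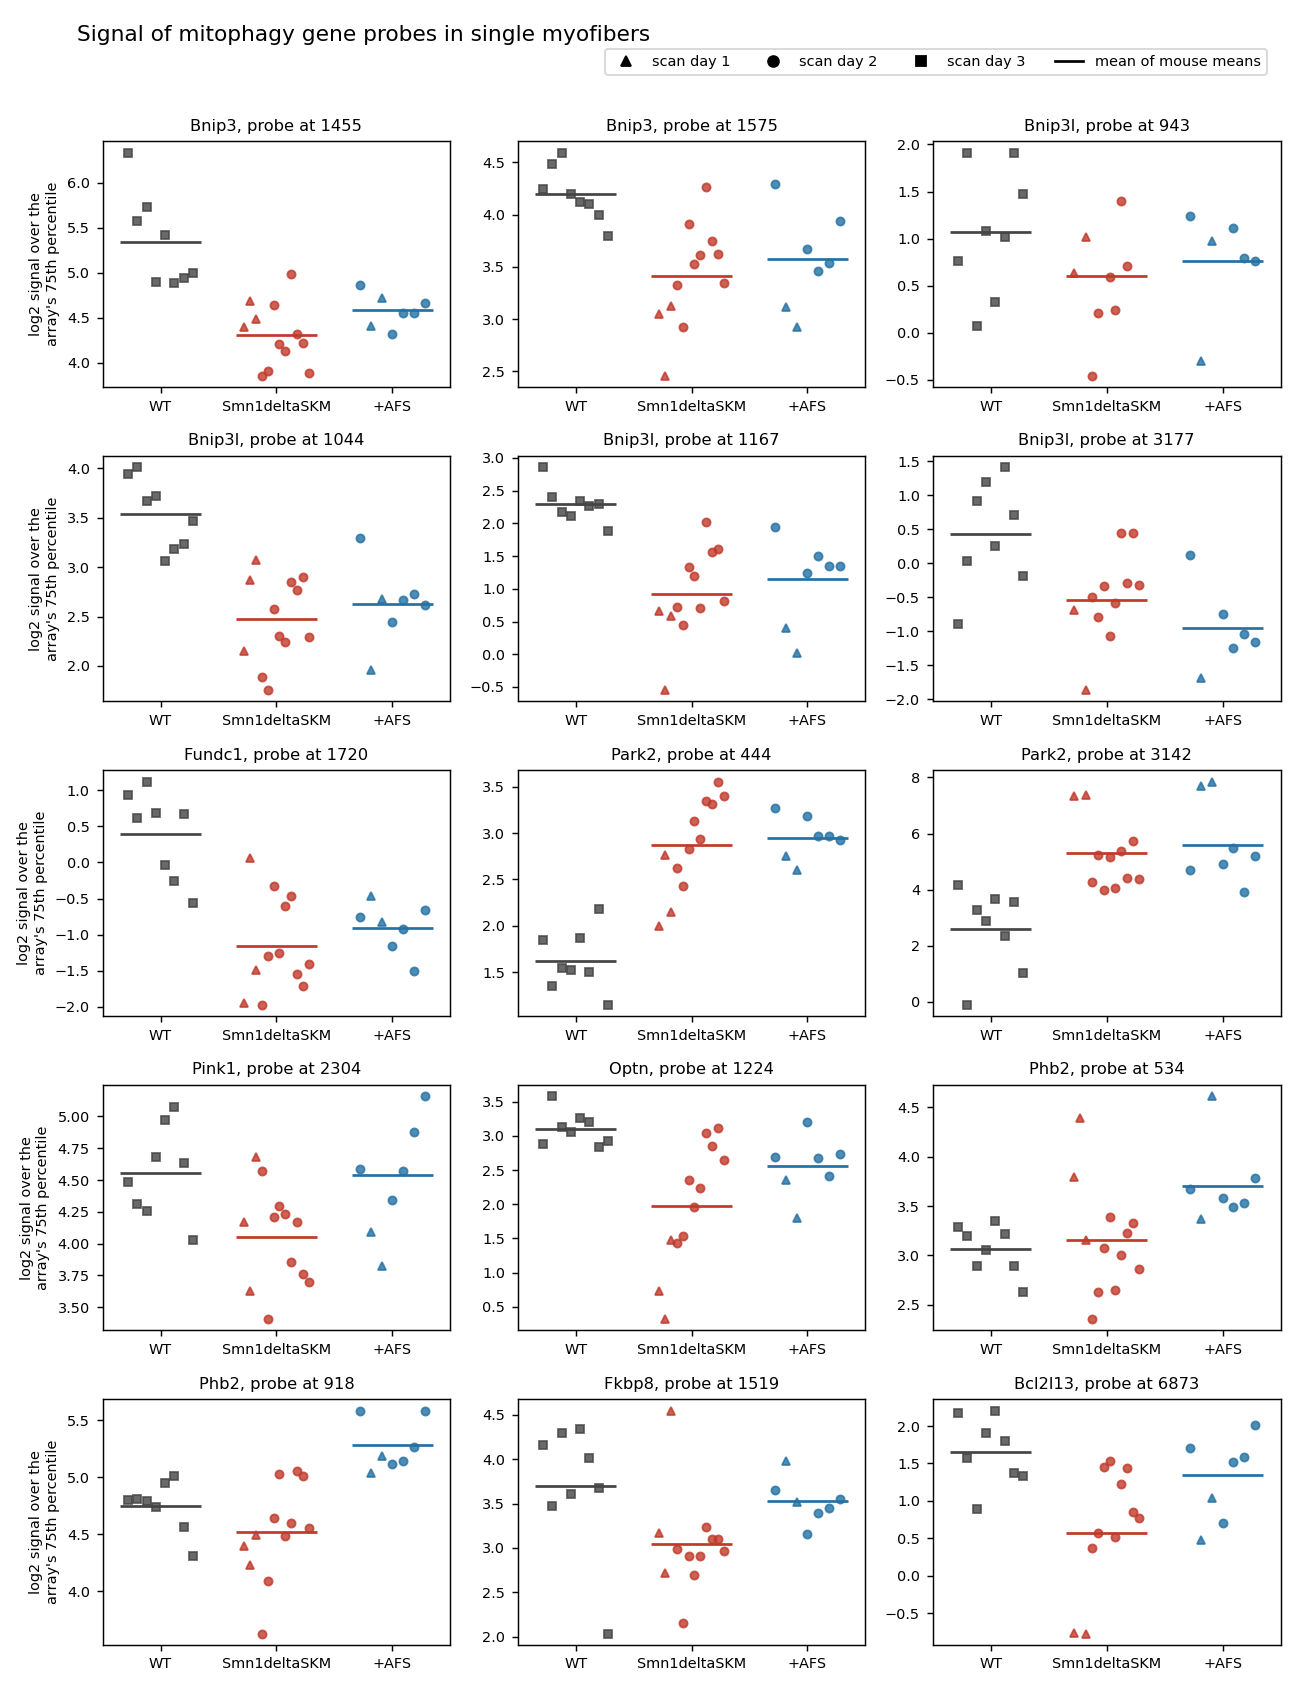
Signal of the 15 tested probes in each myofiber (y axis: log2 signal over the array's 75th percentile; each point 1 myofiber, its shape the scan day, the line the mean of the mouse means) for WT, Smn1deltaSKM and Smn1deltaSKM+AFS (+AFS). The probe of *Bnip3* at 1455 has 11 of 12 Smn1deltaSKM myofibers below the lowest WT myofiber, and that of *Park2* at 444 has 10 of 12 above the highest. The share of all probes with such a placing of myofibers was not counted.

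*Bnip3* encodes a receptor that also binds BCL2 proteins. At position 1455 its signal ran from 4.89 to 6.33 over the 8 WT myofibers (median 5.21), from 3.85 to 4.98 over the 12 Smn1deltaSKM myofibers (4.27) and from 4.32 to 4.86 over the 7 Smn1deltaSKM+AFS myofibers (4.55). No Smn1deltaSKM+AFS myofiber reached the lowest WT myofiber, and 11 of 12 Smn1deltaSKM myofibers lay below it. The mouse means were 5.35 ± 0.406 in WT (SD, n = 2), 4.31 ± 0.076 in Smn1deltaSKM (n = 3) and 4.58 ± 0.008 in Smn1deltaSKM+AFS (n = 2). The difference of -1.04 between Smn1deltaSKM and WT (SE 0.278, 95% interval -1.67 to -0.40, limma, adjusted p = 0.0348) was a 2.05-fold lower signal. At 1575 the myofibers ran from 3.80 to 4.59 in WT (median 4.16), from 2.46 to 4.26 in Smn1deltaSKM (3.43) and from 2.93 to 4.30 in Smn1deltaSKM+AFS (3.53), and 10 of 12 Smn1deltaSKM myofibers lay below the lowest WT myofiber. That difference was -0.78 and did not pass the test (SE 0.312, limma, adjusted p = 0.102).

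The remaining *Bnip3* probe, at 1679, was dim and entered no test of the main fit. It had values on 7 of 8 WT, 3 of 12 Smn1deltaSKM and 3 of 7 Smn1deltaSKM+AFS arrays. It was well above background on 7, 5 and 4. Its measured signal ran from -2.60 to -0.81 in WT (median -1.17), from -5.29 to -2.35 in Smn1deltaSKM (-3.21) and from -4.80 to -1.25 in Smn1deltaSKM+AFS (-2.63). The lowest WT signal lay below the highest of both other groups. Most of the Smn1deltaSKM signals were not well above background, so no difference is given.

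*Bnip3l* encodes NIX, the receptor known for clearing mitochondria from maturing red cells. At 1044 its signal ran from 3.06 to 4.01 in WT (median 3.57), from 1.75 to 3.07 in Smn1deltaSKM (2.44) and from 1.96 to 3.29 in Smn1deltaSKM+AFS (2.67). The lowest WT myofiber exceeded 11 of 12 Smn1deltaSKM myofibers. The difference was -1.07 (SE 0.299, 95% interval -1.75 to -0.38, limma, adjusted p = 0.0398), or 2.09-fold. At 1167 the myofibers ran from 1.89 to 2.86 in WT (median 2.28), from -0.55 to 2.02 in Smn1deltaSKM (0.77) and from 0.02 to 1.95 in Smn1deltaSKM+AFS (1.34). Again 11 of 12 Smn1deltaSKM myofibers lay below WT, and the difference was -1.37 (SE 0.372, 95% interval -2.22 to -0.52, limma, adjusted p = 0.0364), or 2.58-fold. The probes at 943 and 3177 had values on 8 and 11 of 12 Smn1deltaSKM arrays, and their myofibers overlapped those of WT widely. At 943 the signal was well above background on all 12, and the missing values were those of uneven or outlying spots. Their differences of -0.47 (adjusted p = 0.297) and -0.98 (adjusted p = 0.0853, both limma) did not pass the test, and the first was 0.18 with no scaling between arrays.

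*Fundc1* encodes the outer membrane receptor that low oxygen activates through loss of phosphate groups. Its signal ran from -0.57 to 1.12 in WT (median 0.64), from -1.97 to 0.06 in Smn1deltaSKM (-1.35) and from -1.50 to -0.46 in Smn1deltaSKM+AFS (-0.83). WT and Smn1deltaSKM overlapped in part, with 9 of the 12 Smn1deltaSKM myofibers under the WT minimum. The mouse means were 0.40 ± 0.63 in WT (SD, n = 2), -1.16 ± 0.259 in Smn1deltaSKM (n = 3) and -0.91 ± 0.158 in Smn1deltaSKM+AFS (n = 2). WT mice therefore spread more than the other mice for this probe. The difference of -1.56 (SE 0.338, 95% interval -2.34 to -0.79, limma, adjusted p = 0.0200) was a 2.95-fold lower signal in Smn1deltaSKM.

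*Fkbp8*, whose product also keeps BCL2 on mitochondria, ran from 2.03 to 4.34 in WT (median 3.85), from 2.16 to 4.55 in Smn1deltaSKM (2.97) and from 3.16 to 3.98 in Smn1deltaSKM+AFS (3.52). The WT minimum is a single myofiber, the next lying at 3.47. The difference between Smn1deltaSKM and WT was -0.66 (95% interval -1.35 to 0.03, limma, adjusted p = 0.144). *Bcl2l13*, the mammalian counterpart of the yeast receptor Atg32, ran from 0.89 to 2.21 in WT (median 1.69), from -0.78 to 1.54 in 11 Smn1deltaSKM myofibers with a value (0.77) and from 0.47 to 2.01 in Smn1deltaSKM+AFS (1.51). Its mouse means in Smn1deltaSKM were -0.39, 1.02 and 1.07, the lowest being that of mouse 1, and the difference was -1.09 (95% interval -2.17 to -0.01, limma, adjusted p = 0.126). The 3 signals of *Bcl2l13* from Smn1deltaSKM arrays scanned on day 1 lay at -1.84, -0.78 and -0.76, all below the day 2 range of 0.37 to 1.54.

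*Phb2* encodes prohibitin 2, which forms a ring in the inner membrane with prohibitin 1. At 534 its signal ran from 2.63 to 3.35 in WT (median 3.13), from 2.35 to 4.40 in Smn1deltaSKM (3.11) and from 3.37 to 4.62 in Smn1deltaSKM+AFS (3.58). At 918 it ran from 4.30 to 5.01 in WT (median 4.80), from 3.63 to 5.05 in Smn1deltaSKM (4.52) and from 5.04 to 5.59 in Smn1deltaSKM+AFS (5.18). Smn1deltaSKM and WT overlapped at both probes, with differences of 0.09 (95% interval -0.54 to 0.71) and -0.23 (-0.88 to 0.42), and limma gave adjusted p = 0.833 and 0.576. The second difference turned to 0.08 with quantile normalization and to 0.39 with no scaling.

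*Park2*, the Parkin gene, was the only member called higher in Smn1deltaSKM. At 444 its signal ran from 1.15 to 2.18 in WT (median 1.54), from 2.00 to 3.56 in Smn1deltaSKM (2.88) and from 2.60 to 3.27 in Smn1deltaSKM+AFS (2.97). Of the 12 Smn1deltaSKM myofibers 10 lay above the highest WT myofiber, as did every Smn1deltaSKM+AFS myofiber. The difference was 1.25 (SE 0.335, 95% interval 0.49 to 2.02, limma, adjusted p = 0.0346), or 2.38-fold. At 3142 the signal ran from -0.10 to 4.18 in WT (median 3.08), from 4.00 to 7.36 in 11 Smn1deltaSKM myofibers with a value (5.18) and from 3.92 to 7.85 in Smn1deltaSKM+AFS (5.19). Here 9 of the Smn1deltaSKM and 6 of 7 Smn1deltaSKM+AFS myofibers lay above the highest WT myofiber. The difference was 2.70 (SE 0.566, 95% interval 1.41 to 4.00, limma, adjusted p = 0.0180), or 6.50-fold.

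The size at 3142 moved with the scan day. The 3 Smn1deltaSKM signals of day 1, 1 of them left out by the software's flags, lay at 6.38, 7.32 and 7.36, and the 9 of day 2 between 4.00 and 5.73. Both Smn1deltaSKM+AFS signals of day 1, at 7.69 and 7.85, likewise lay above the 5 of day 2, which ran from 3.92 to 5.50. Within mouse 1 of each group, day 1 exceeded day 2 by 2.77 and 2.95. At 444 the same contrast was -0.32 and -0.55, so the probes of this gene moved opposite ways with the day. Without the day 1 myofibers, a choice made after these values were seen, Smn1deltaSKM differed from WT by 2.02 at 3142 (SE 0.281, limma, adjusted p = 0.00445) and by 1.33 at 444 (adjusted p = 0.0139). All WT signals came from day 3.

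**Figure D2:**
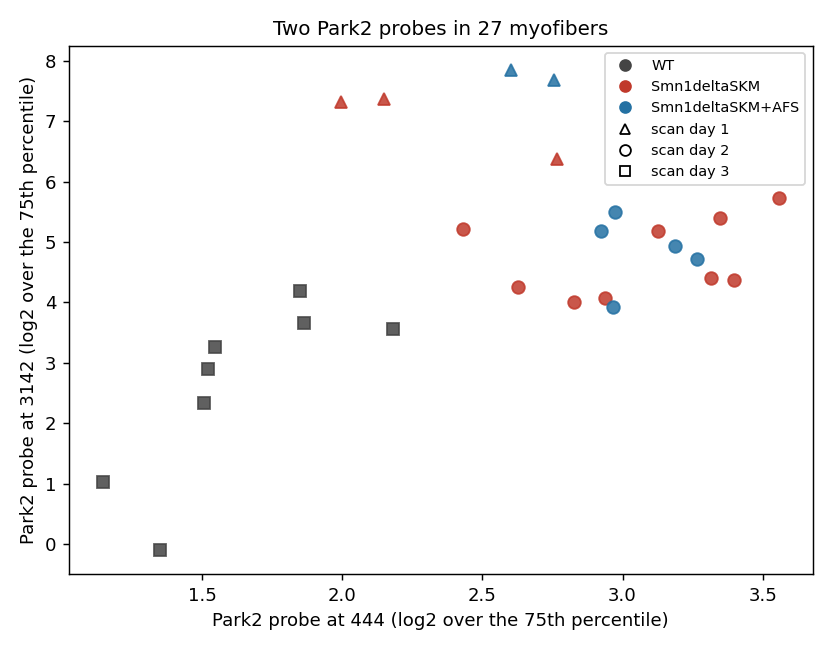
Signal of the *Park2* probe at 444 (x axis) against that at 3142 (y axis), both as log2 over the array's 75th percentile, in 27 myofibers; colours mark the groups and shapes the scan day. The 5 myofibers scanned on day 1 lie at 6.38 or higher on the y axis, above all others, while WT lies at 2.18 or lower on the x axis.

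*Pink1* ran from 4.03 to 5.07 in WT (median 4.56), from 3.41 to 4.68 in Smn1deltaSKM (4.17) and from 3.82 to 5.16 in Smn1deltaSKM+AFS (4.57), with wide overlap. The difference of Smn1deltaSKM from WT was -0.50 (95% interval -1.19 to 0.19, limma, adjusted p = 0.255) and turned to 0.12 with no scaling. *Optn* ran from 2.83 to 3.58 in WT (median 3.09), from 0.32 to 3.12 in Smn1deltaSKM (2.10) and from 1.80 to 3.20 in Smn1deltaSKM+AFS (2.68). Of 12 Smn1deltaSKM myofibers 9 lay below the lowest WT myofiber, yet the mouse means of 0.99, 2.02 and 2.92 were far apart, and the difference of -1.13 did not pass the test (95% interval -2.27 to 0.00, limma, adjusted p = 0.129). With the mouse number as a replicate block, Smn1deltaSKM mouse 3, at 2.92 the nearest to WT, has no partner and adds nothing to the difference. That fit gave -1.60 (limma, adjusted p = 0.0393), a call that does not use the mouse nearest to WT. The lowest mouse was again mouse 1, whose day 1 myofibers lay at 0.32, 0.73 and 1.47.

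**Figure D3:**
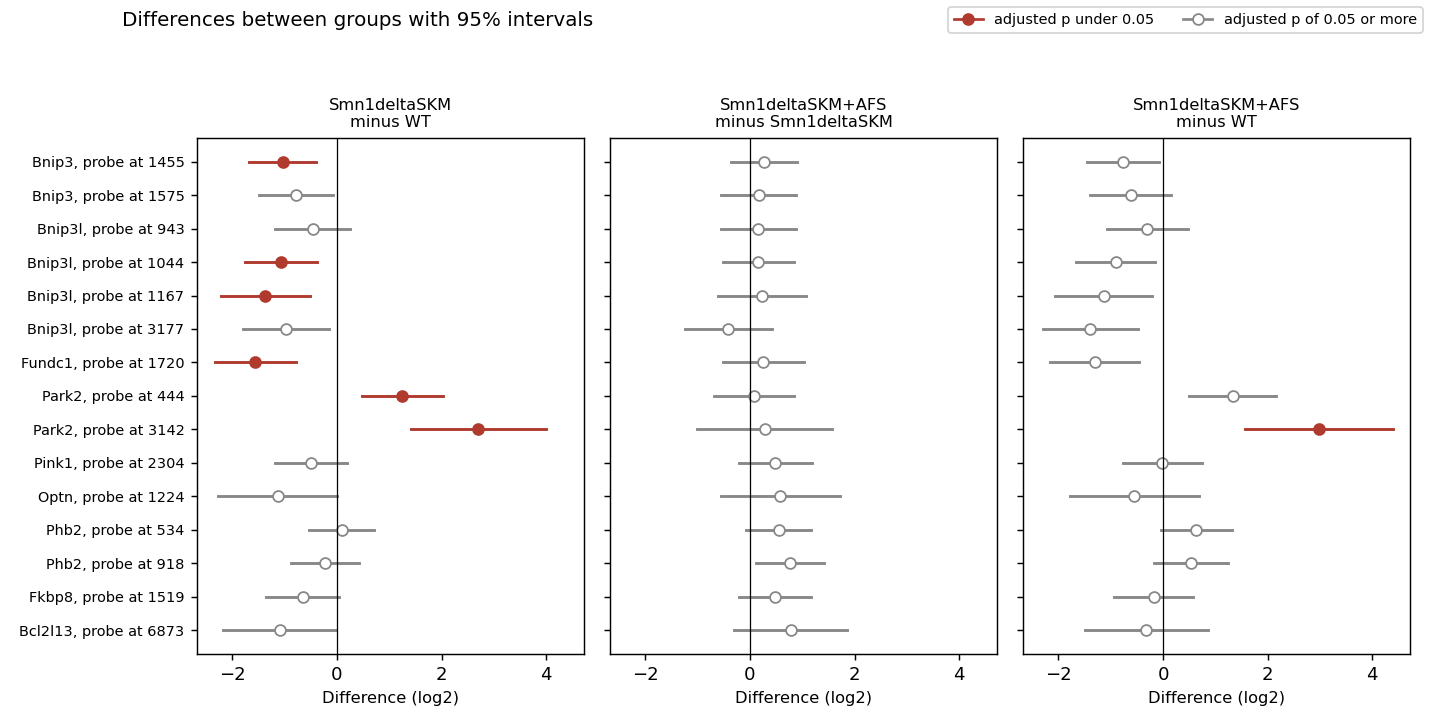
Differences between group means over mice for the 15 tested probes (x axis: log2 difference; bars: 95% intervals from limma; filled: adjusted p under 0.05). Filled points are 4 lower and 2 higher probes for Smn1deltaSKM minus WT, none for Smn1deltaSKM+AFS minus Smn1deltaSKM, and the *Park2* probe at 3142 for Smn1deltaSKM+AFS minus WT.

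The called differences depended on the scale to different degrees. Under 5 other scalings both *Park2* probes were called each time, with differences of 1.44 to 1.87 at 444 and 2.91 to 3.31 at 3142. *Fundc1* was called under 4 of the 5 and had an adjusted p of 0.121 with no scaling (limma). The *Bnip3* and *Bnip3l* probes were called under none, at differences of -0.82 to -0.42 for *Bnip3* at 1455, -0.85 to -0.45 for *Bnip3l* at 1044 and -1.20 to -0.75 for *Bnip3l* at 1167. All 5 scalings raised the median difference over all probes, from -0.16 to between -0.10 and 0.45. Such a shift tends to help higher calls and to weaken lower ones, so the contrast between these genes is partly one of direction. The authors' value table nearly repeated quantile normalization, with 2.95 and 2.98 for *Park2* at 3142, so these are not separate checks. With the slide as a random block *Bnip3l* at 1167 was the only call, at -1.55 (limma, adjusted p = 0.0393). When either WT mouse was left out no probe of the array was called, so the test says nothing there about these 6, and their differences were 2.66 and 2.74 for *Park2* at 3142, 1.20 and 1.31 for *Park2* at 444, -1.12 and -2.003 for *Fundc1*, -1.27 and -1.46 for *Bnip3l* at 1167, -0.77 and -1.37 for *Bnip3l* at 1044 and -0.75 and -1.32 for *Bnip3*. Without Smn1deltaSKM mouse 2 limma called 2 member probes and 8.21% of all probes, without mouse 3 it called 3 and 9.14%, and without mouse 1 it called 7 and 43.6%, against 21.3% with all mice.

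**Figure D4:**
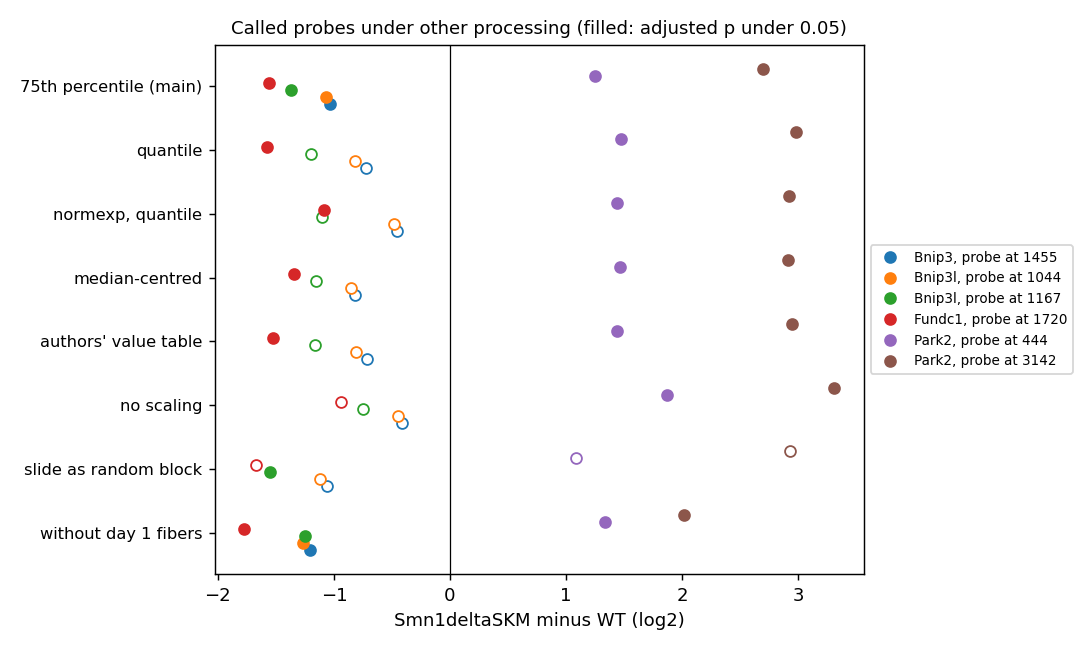
Difference of Smn1deltaSKM from WT (x axis, log2) for the 6 called probes under 8 ways of processing (y axis; filled: adjusted p under 0.05 in limma). The *Park2* probes are filled under every scaling between arrays, and the *Bnip3* and *Bnip3l* probes lie nearer 0 and unfilled under the 5 other scalings.

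After AFS cell transfer no member probe differed from untreated Smn1deltaSKM by the test. limma called 0% of the 22154 probes (lowest adjusted p = 0.9999), with 713 of all probes and 1 member probe at an unadjusted p under 0.05. That probe was *Phb2* at 918, at 0.76 (95% interval 0.12 to 1.41, unadjusted limma p = 0.0255), where 6 of 7 Smn1deltaSKM+AFS myofibers lay above the highest Smn1deltaSKM myofiber. Within scan day 1, with 1 mouse in each group, the difference was 0.74, and within day 2 it was 1.01. On day 2 Smn1deltaSKM mouse 1 was represented by 1 myofiber, at 3.63 the lowest of its group. *Phb2* at 534 differed by 0.55 (95% interval -0.07 to 1.17), by 0.21 within day 1 and by 0.82 within day 2. The same Smn1deltaSKM myofiber was the lowest of its group there too, at 2.35. *Mb* and *Myh1*, and by less *Ckm* and *Actn3*, were also higher in median signal after the transfer, as given above. Their part in the *Phb2* difference was not tested. Every Smn1deltaSKM+AFS mouse lay above every Smn1deltaSKM mouse for 4 of the 15 member probes, both of *Phb2*, *Bnip3* at 1455 and *Fkbp8*, and below for none, against 12.3% and 4.23% of all probes.

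The intervals for the other members were wide. *Bnip3* at 1455 differed by 0.27 (95% interval -0.36 to 0.91). *Fundc1* differed by 0.25 (-0.52 to 1.02), *Pink1* by 0.48 (-0.21 to 1.18), *Optn* by 0.58 (-0.55 to 1.71) and *Bcl2l13* by 0.78 (-0.30 to 1.85). *Bnip3l* differed by 0.16, 0.16 and 0.23 at the first 3 positions and by -0.41 at 3177. *Park2* differed by 0.08 at 444 (-0.68 to 0.84) and by 0.28 at 3142 (-1.01 to 1.57). The median over the member probes was 0.27 against 0.06 over all probes. Of the 15 member probes 14 were above 0, while 42.3% of all probes lay below 0. With no scaling, which moved the median over all probes to -0.36, every *Bnip3*, *Bnip3l*, *Fundc1* and *Park2* probe lay below 0.

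Compared with WT, Smn1deltaSKM+AFS mice had a higher *Park2* signal. At 3142 they exceeded WT by 2.98 (SE 0.618, 95% interval 1.57 to 4.40, limma, adjusted p = 0.0338), or 7.90-fold, the only call among 15 member probes in a comparison where 4.35% of all probes were called lower and 2.99% higher. With 1 mouse of either group left out the difference ranged from 2.27 to 3.69 and was not called, in fits of which 3 of 4 called no probe of the array. The call held without the day 1 myofibers at 2.24 (limma, adjusted p = 0.0104). At 444 the difference was 1.33 (limma, adjusted p = 0.0618). *Fundc1* lay at -1.31 (adjusted p = 0.0660), *Bnip3l* at 3177 at -1.39 (adjusted p = 0.0675) and *Bnip3* at 1455 at -0.76 (adjusted p = 0.140), none of them past the limma threshold. *Pink1* lay at -0.02, and its sign turned under 5 scalings. For 10 of the 15 tested probes the order of the group means was WT, Smn1deltaSKM+AFS and Smn1deltaSKM from highest to lowest. The share of all probes in that order was not counted, so the count is no result about the members. Both steps also share the Smn1deltaSKM mean. With no scaling every tested *Bnip3*, *Bnip3l* and *Fundc1* probe lay lower in Smn1deltaSKM+AFS than in Smn1deltaSKM, so the order did not hold for them there. Of all probes, 56.6% lay lower in Smn1deltaSKM than in WT, and 42.3% lower in Smn1deltaSKM+AFS than in Smn1deltaSKM. The step from Smn1deltaSKM+AFS to Smn1deltaSKM passed the test for none of the 10.

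Genes that act with the members were grouped in 5 lists, with the brightest tested probe for each gene. Of 66 genes on the array 60 were tested between Smn1deltaSKM and WT, and limma called 12 lower and 5 higher, or 20% and 8.33%, against 13.7% and 7.58% of all 16469 genes taken the same way. The median difference was -0.52 over the lists and -0.13 over all genes. With no scaling 4 were called lower and 6 higher and the median over the lists was 0.10, so the balance between the directions depends on the scale. Between Smn1deltaSKM+AFS and Smn1deltaSKM limma called 0 of 59.

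Among 25 tested partners of PINK1 and Parkin, 23 lay below 0, as did 9077 of all 16469 genes. The median was -0.54, and 2 were called lower, which is 8% against the 13.7% of all genes. With no scaling 15 of the 25 lay above 0, the median was 0.09 and none was called, so the direction of this list depends on the scale. The called genes were *Fbxo7*, an F-box protein that binds Parkin, at -1.45 (SE 0.304, limma, adjusted p = 0.0178), and *Ube2l3*, a ubiquitin-conjugating enzyme that works with Parkin, at -1.32 (SE 0.340, limma, adjusted p = 0.0314). *Fbxo7* mouse means were 1.29 and 1.35 in WT and 0.27, -0.53 and -0.16 in Smn1deltaSKM. The Parkin substrates *Vdac3* and *Vdac1*, outer membrane channels, lay at -1.04 and -0.71 (limma, adjusted p = 0.0568 and 0.0754), and the fusion GTPases *Mfn1* and *Mfn2*, also ubiquitinated by Parkin, at -0.29 and 0.30 (adjusted p = 0.492 and 0.629).

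Of 6 tested cargo adaptors and TBK1, 1 was called, *Calcoco1*, a relative of the adaptor NDP52, at -1.92 (SE 0.314, limma, adjusted p = 0.0107), with mouse means of 3.47 and 3.30 in WT and 1.12, 1.36 and 1.92 in Smn1deltaSKM. The adaptor *Sqstm1* (p62) lay at -0.02 and the kinase *Tbk1*, which phosphorylates optineurin, at 0.28 (limma, adjusted p = 0.976 and 0.453). Of 5 Atg8 genes 1 was called in each direction (20% each, against 13.7% lower and 7.58% higher of all genes). *Gabarapl1* was higher at 1.85 (SE 0.444, limma, adjusted p = 0.0255), with mouse means of 3.71 and 3.62 in WT and 5.36, 5.74 and 5.47 in Smn1deltaSKM, while *Map1lc3a* was lower at -1.14 (SE 0.331, limma, adjusted p = 0.0438).

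Of 14 tested regulators of the receptors, 4 were called lower and 3 higher (28.6% and 21.4%, against 13.7% and 7.58% of all genes). The lower genes were *Csnk2b*, a casein kinase 2 subunit, at -1.54, *Ppp2cb*, a phosphatase 2A catalytic subunit, at -1.45, *Ulk1*, the kinase that starts autophagy and phosphorylates FUNDC1, at -1.36, and *Fbxl4*, which limits the amounts of BNIP3 and NIX, at -1.33. The higher genes were *Mcl1* at 1.68, *Src* at 1.27 and *Bcl2* at 1.01, 2 of which encode survival proteins of the BCL2 family and 1 a tyrosine kinase that phosphorylates FUNDC1. *Foxo3* lay at -0.75 (limma, adjusted p = 0.116). Of 10 tested inner membrane partners of prohibitin and other receptors, 4 were called lower and 1 higher (40% and 10%, against 13.7% and 7.58% of all genes). The lower genes were the protease *Yme1l1* at -2.32 (SE 0.318, limma, adjusted p = 0.00762), *Gbas* at -2.21, the protease subunit *Spg7* at -1.92 and the cardiolipin synthase *Crls1* at -1.76, and the higher one was *Nlrx1*, an innate immune receptor of mitochondria, at 1.09. *Gbas*, the array's symbol for *Nipsnap2*, had mouse means of 7.52 and 7.55 in WT and 5.14 to 5.44 in Smn1deltaSKM.

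The calls of *Calcoco1*, *Gabarapl1*, *Mcl1*, *Bcl2*, *Yme1l1*, *Spg7*, *Gbas* and *Nlrx1* held under the 5 other scalings, while those of *Map1lc3a* and *Ulk1* were lost under each. All 5 raised the median over all probes, as given above, which tends to help higher calls and to weaken lower ones. *Fbxl4* lost its call under 3 of the 5, *Ube2l3* under 2, and *Src*, *Fbxo7*, *Csnk2b*, *Ppp2cb* and *Crls1* under 1. Without the day 1 myofibers *Bcl2* and *Map1lc3a* were not called (limma, adjusted p = 0.105 and 0.176). Between Smn1deltaSKM+AFS and WT limma called 6 of 59 tested list genes lower (10.2%), *Yme1l1*, *Crls1*, *Calcoco1*, *Gbas*, *Fbxo7* and *Csnk2b*, and 2 higher (3.39%), *Mcl1* and *Nlrx1*, against 4.08% and 3.34% of all genes.

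**Figure D5:**
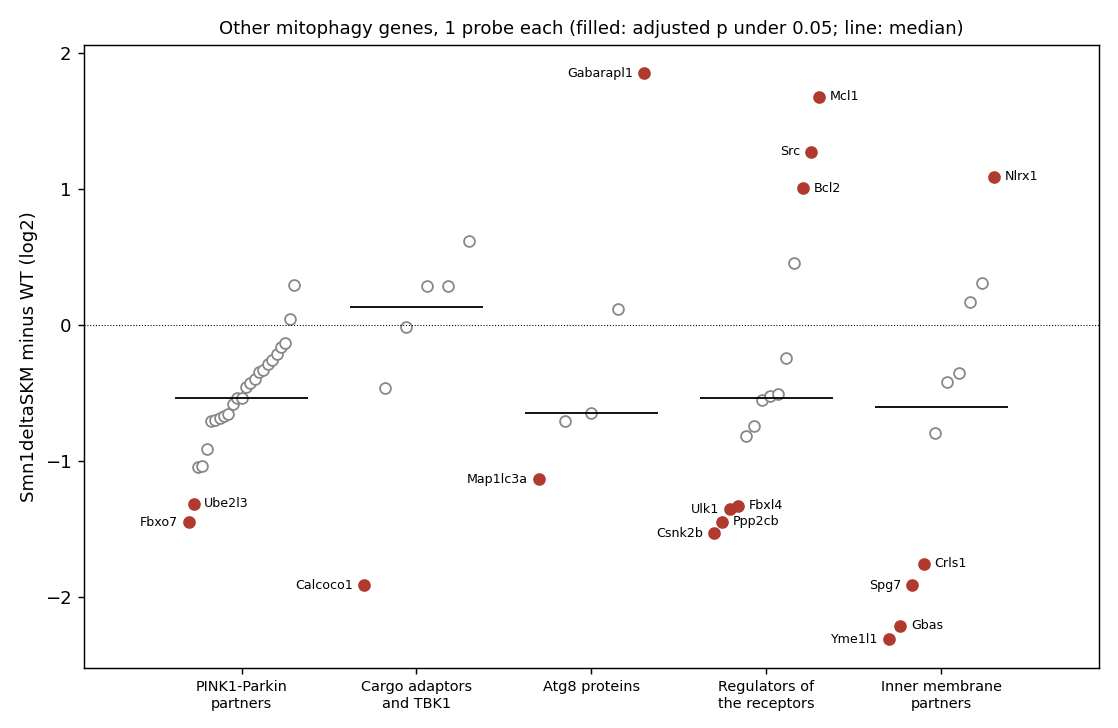
Difference of Smn1deltaSKM from WT (y axis, log2) for the tested genes of the 5 lists (x axis), 1 probe each; filled and named points have an adjusted p under 0.05 in limma and lines mark medians. *Yme1l1* lies lowest among the named points at -2.32 and *Gabarapl1* highest at 1.85.

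Among the member probes, myofibers of 1 mouse differed most for the *Park2* probe at 3142. Its SD within mice was 1.34, at the 99.4th percentile of all tested probes, whose median was 0.447. Scan day was not removed from this SD. In mouse 1 of Smn1deltaSKM and of Smn1deltaSKM+AFS, day 1 exceeded day 2 by 2.77 and 2.95 at this probe. The *Park2* probe at 444 and the *Phb2* probe at 918 varied little, with SDs of 0.296 and 0.295. Across 27 myofibers, which share arrays, slides and scan days within groups, the *Bnip3* probe at 1575 and the *Bnip3l* probe at 1167 moved most alike among the member probes, with a Pearson r of 0.924, or 0.870 around the group means. *Optn* had r of 0.834 and 0.824 with the same probes, and 0.761 and 0.756 around the group means. The *Bnip3* probes at 1455 and 1575 had r of 0.654, or 0.319 around the group means, while that at 1455 had r of 0.848 with *Bnip3l* at 1044. The genes most like each member over at least 24 myofibers were *Twsg1* (r = 0.901) and *Ppp1cb* (0.895) for *Bnip3*, *Nat6* (0.901) and *Cux1* (0.870) for *Bnip3l*, *Hspa4* (0.899) and *Far2* (0.890) for *Fundc1*, and *Svil* (0.959) and *Gmppa* (0.949) for *Optn*. For *Park2* at 3142 they were *AI118078* (0.937) and *4930452L12Rik* (0.926). For the other members the gene most alike was *Tmed1* (0.855) for *Pink1*, *Rps6ka2* (0.892) for *Phb2*, *Psmb4* (0.874) for *Fkbp8* and *Me3* (0.895) for *Bcl2l13*.

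Promoters of 7 of the 9 members, all but *Bnip3l* and *Park2*, were found among the RefSeq windows of GRCm38.p6, which run from 250 bases before to 50 after the start of a gene. They were searched on both strands for ACGTG, the core of the element bound by hypoxia-inducible factors, and for GTAAACA, a core bound by FoxO factors. ACGTG was in 3 of the 7 windows and in 19.6% of all 32851, and GTAAACA was in 0 of 7 and in 3.65%. The stretches around it are shown because low oxygen is a known inducer of *Bnip3*, with the motif, or CACGT where it lies on the other strand, in capitals.
Bnip3, chr7:138909596-138909625, minus strand: cgcacgcgccgcACGTGccacacgctcccc
Fkbp8, chr8:70527666-70527695, plus strand: ggcgcgagacggACGTGtgcacaagccaat
Phb2, chr6:124712079-124712108, plus strand: aagttagaacttCACGTccgtcctcacggc
The *Bnip3* stretch holds the motif on both strands, overlapping.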

How the data were processed

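RNA of each myofiber was amplified in 18 cycles and hybridized to a one-colour Agilent mouse array. The deposited scanner files hold intensities that the authors extracted with Agilent Feature Extraction 10.7.3.1, background-subtracted but not scaled between arrays, and spot flags. The authors' value table of linear intensities served as an alternative. Here log2 of the processed signal (floor 1) minus the array's 75th percentile was used. Values of spots not found, not well above background, non-uniform or outlying were left out, and repeated spots were averaged. A probe was tested if it had values on at least 75% of 20 arrays (Smn1deltaSKM against WT) or of 27 arrays (comparisons with AFS). The methods of the study took myofibers as replicates, while here limma 3.58.1 in R 4.3.3 compared mouse means in 1 model of 7 mice, with Benjamini-Hochberg adjustment over all probes. The fit was tested on simulated data. Replicates are mice, as numbered in the labels, and p-values measure the spread between them. All member probes are reported, list genes by counts and, where called, values, and the 2 genes most correlated with each member's brightest tested probe. A few list genes that were not called (*Vdac1*, *Vdac3*, *Mfn1*, *Mfn2*, *Sqstm1*, *Tbk1*, *Foxo3*) were named after their values were seen. Members, lists and tests were chosen with earlier results of these data known. Probe coordinates are those of the deposited files (mm9). The alternatives were other scalings, filters, replicate units and blocks, and leaving out each mouse. Leaving out the day 1 myofibers or WT myofiber 8 was added after seeing the data.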

Additional observations from a re-analysis of the deposited data

Results flagged for a closer look

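Of 32 groups of 4 to 10 myofibers examined for a myofiber far from the others, 3 held one, where chance gives about 1 in 20. *Bnip3l* at 943 lay at -0.30 in Smn1deltaSKM+AFS myofiber 2, below the next of 6 values at 0.76. *Phb2* at 534 lay at 4.62 in Smn1deltaSKM+AFS myofiber 3, above the next of 7 values at 3.78. Both arrays were scanned on day 1. *Fkbp8* lay at 2.03 in WT myofiber 8, below the next of 8 values at 3.47.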

How the results depend on the processing

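The 6 calls between Smn1deltaSKM and WT became 3 with quantile normalization, normexp, median centring, the authors' value table or measured signals kept without a filter, 2 with no scaling, 1 with the slide as a random block (10.4% of all probes called, against 21.3%), 9 with the mouse as a random block (34.6%), 12 with myofibers as replicates (53.8%) and 0 to 7 without 1 mouse or without WT myofiber 8. With measured signals kept, the 3 calls were *Fundc1*, *Park2* at 3142 and *Bnip3* at 1679, so 2 of the 6 remained. *Park2* at 444 was lost there (limma, adjusted p = 0.0553), as were *Bnip3* at 1455 and both *Bnip3l* probes of the 6. *Bnip3* at 1679 was untested in the main fit, and most of its Smn1deltaSKM signals were not well above background. The mouse numbers pair no animals by the labels, and deviations of same-numbered mice correlated at -0.05 to 0.30. With the number as a replicate block limma called 4, 0 and 1 member probes in the 3 comparisons, against 6, 0 and 1. It called 13.1%, 0% and 5.5% of all probes, against 21.3%, 0% and 7.34%. Of the 4 member probes called between Smn1deltaSKM and WT, 3 were among the 6 and the other was *Optn* at -1.60 (limma, adjusted p = 0.0393). *Bnip3* at 1455, *Bnip3l* at 1044 and *Park2* at 444 were lost (adjusted p = 0.0771, 0.0603 and 0.0871). Smn1deltaSKM mouse 3 has no partner in this fit and adds nothing to these differences. The 1 call between Smn1deltaSKM+AFS and WT (7.34%) became 2 with measured signals kept (4.96%). The added probe was *Bnip3* at 1679, untested in the main fit. There were 2 calls without the day 1 myofibers (11.1%) and 0 on probes measured on every array (8.03%), where the probe of the main call was not tested. Myofibers as replicates gave 10 (41.3%) and the mouse as a random block 6 (20.1%). Without 1 mouse or without WT myofiber 8 there were 0 to 2, with 0% to 9.63% of all probes called. No alternative gave a member call between Smn1deltaSKM+AFS and Smn1deltaSKM, though myofibers as replicates gave 26 calls over all probes.

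Signs of uncalled differences turned as follows, and the cause was not tested. Between Smn1deltaSKM and WT, no scaling gave 0.18 for *Bnip3l* at 943, 0.12 for *Pink1* and 0.39 for *Phb2* at 918, for which quantile normalization and the authors' table gave 0.082. *Phb2* at 534 ranged from -0.047 to 0.198 with 1 mouse left out and gave -0.27 without the day 1 myofibers. Between Smn1deltaSKM+AFS and Smn1deltaSKM, no scaling gave -0.15 and -0.26 for *Bnip3* at 1455 and 1575, -0.29, -0.27 and -0.20 for *Bnip3l* at 943, 1044 and 1167, -0.18 for *Fundc1*, and -0.35 and -0.14 for *Park2* at 444 and 3142. With 1 mouse left out the range was -0.046 to 0.332 for *Bnip3* at 1575, -0.055 to 0.517 for *Bnip3l* at 1167, -0.165 to 0.345 for *Park2* at 444 and -0.433 to 0.993 for *Park2* at 3142. Within scan day 1, with 1 mouse in each group, *Bnip3l* at 943, 1044 and 1167 gave -0.49, -0.38 and -0.022 and *Pink1* -0.20. *Park2* at 444 gave -0.05 with quantile normalization or the authors' table and -0.011 with median centring. Between Smn1deltaSKM+AFS and WT, *Pink1* gave 0.136, 0.252, 0.111, 0.178 and 0.134 under quantile normalization, normexp, median centring, no scaling and the authors' table, and 0.111 without the day 1 myofibers. *Fkbp8* gave 0.128 with normexp and 0.017 with no scaling. With 1 mouse or WT myofiber 8 left out, *Pink1* ranged from -0.345 to 0.316, *Fkbp8* from -0.423 to 0.009 and *Bcl2l13* from -0.681 to 0.048. The number of mice limits what could be called, and for *Bnip3* at 1679 so does signal near background.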
